A study of Rattus norvegicus with 60 samples.

Results

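The comparison described here is that of rats given permethrin at 10 mg/kg with rats given vehicle, over all 31042 probe sets of the array. Its members were chosen by their titles, which name the compound, the dose and the 6 h sampling time, and they are 20 of the 60 arrays of the series. The treated group was 8 adult male Long-Evans rats dosed once by oral gavage with permethrin (purity 92.0%, 40% cis and 60% trans isomers) in corn oil at 1 mL/kg. The control group was 12 rats of the same strain, sex and age (postnatal days 62 to 64) given the same volume of corn oil alone. Rats given 1 and 100 mg/kg permethrin (8 each) were used as neighbouring doses, and all 60 arrays, with those of 3 deltamethrin doses, gave the estimate of the spread. RNA of the frontal cortex of each rat was hybridized to its own Affymetrix rat genome array without pooling, so each value comes from 1 animal. Only males, 1 time point and whole tissue were studied, and in such tissue fewer cells of a type and less RNA per cell cannot be told apart.

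Permethrin is a pyrethroid insecticide without the α-cyano group that deltamethrin carries. Pyrethroids slow the closing of voltage-gated sodium channels, so that a nerve membrane stays excitable or fires repeatedly. Strong firing of cortical neurons is known to switch on immediate early genes such as Fos and Egr1 within minutes and, later, genes such as Bdnf. The dose of 10 mg/kg lies between the lowest and the highest permethrin dose of the study. The question of the comparison was whether a dose of this size leaves a trace in cortical mRNA.

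Markers of cortical neurons were present on every array. Slc17a7, the vesicular glutamate transporter of cortical excitatory neurons, ranged from 12.20 to 12.93 on the log2 scale over the 20 arrays, and Gad1, the GABA-synthesizing enzyme, from 11.56 to 12.36. Levels varied between arrays in ways that the groups do not explain. The first principal component of all 60 arrays held 58.0% of the variance, and clustering on the first 2 components divided the arrays into 3 sets of 14, 10 and 36 that the labels do not name. The permethrin 10 mg/kg group had 3, 0 and 5 arrays in sets 1, 2 and 3, and the vehicle group 2, 4 and 6. The groups thus differed in their share of each set. Because set 2 holds no array of the treated group, within-set values were taken in sets 1 and 2 together (3 treated and 6 vehicle rats) and in set 3 (5 treated and 6 vehicle rats). In sets 1 and 2 the 3 treated rats were all in set 1 and 4 of the 6 vehicle rats in set 2, so that the treatment and the array set could be told apart only in part there. By replicate number, sets 1 and 2 held treated rats 1 to 3 and vehicle rats 1 to 6. In group sizes, sets 1 and 2 together and set 3 match the first and the second animal cohort of the study's methods, which were dosed on separate days. No label gives the cohort of a rat, so cohort was not used as a batch, and its part in the array sets was not tested. Of 78 probe sets examined by name, the difference was over 1.5 times larger in sets 1 and 2 than in set 3 for 52, over 1.5 times larger in set 3 for 6, and of opposite sign for 8. Values within the sets are given below for many of these genes.

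**Figure D1:**
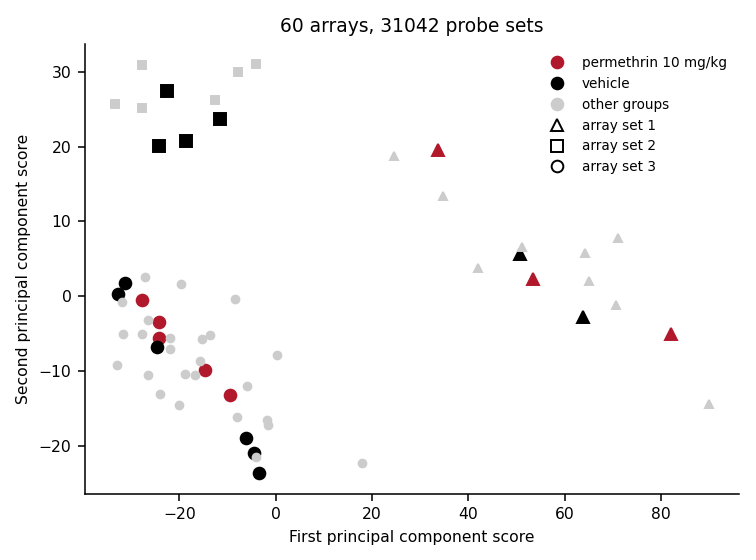
Scores of the 60 arrays on the first (x axis) and second (y axis) principal component of all probe sets, with permethrin 10 mg/kg in red, vehicle in black and the other groups in grey, and the marker shape giving the array set. Among the 8 treated rats, 3 lie at the right in set 1 and none at the top left in set 2, where 4 vehicle rats lie.

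Cortical mRNA levels at 10 mg/kg permethrin did not differ detectably from those in vehicle for any gene at this number of rats. Of 31042 probe sets, 0 passed an adjusted p of 0.05 (0%) in limma's moderated test with Benjamini-Hochberg adjustment, and the smallest adjusted p was 0.961. The study ran Dunnett tests on probe sets it had first selected as dose-responsive, and reported some as different from control at this dose. That is another procedure on the same arrays. At an unadjusted p under 0.05 there were 1080 probe sets (3.48%), of which 733 were higher (2.36%) and 347 lower (1.12%) in treated rats. The excess of higher over lower values depended on how the array structure was treated and on 1 treated rat. It was larger with each array centred on its median (1148 higher and 161 lower). It stayed with the 2 array clusters as a block (881 and 550) and with the 24 arrays of sets 1 and 2 against the 36 of set 3 as a block (2099 and 896). It turned round with the 3 array sets as a block (584 and 863), and with the first component added to the block of 24 and 36 (1561 and 1749). Within set 3 it also turned round (249 and 467), as it did without treated replicate 2 (457 and 504). Leaving out any other single rat kept it. No probe set separated the groups, since in 0 of 31042 (0%) did all 8 treated rats lie above all 12 vehicle rats, and in 0 (0%) below them.

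The differences themselves were small, and the intervals around them were narrow for most probe sets. The median difference over all probe sets was -0.00065 on the log2 scale, and 95.6% of probe sets differed by under 0.25 either way. The 95% interval of a difference had a median distance from its centre to either end of 0.164, from 0.0977 at the 10th to 0.363 at the 90th percentile of probe sets. The whole interval lay within 1.5-fold either way for 28841 probe sets (92.9%) and within 2-fold for 30792 (99.2%). These shares count probe sets of any level, also those that may lie at background. Such an interval need not exclude a difference under 1.5-fold. A single probe set, that of Ttr, differed by more than 1 on the log2 scale.

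**Figure D2:**
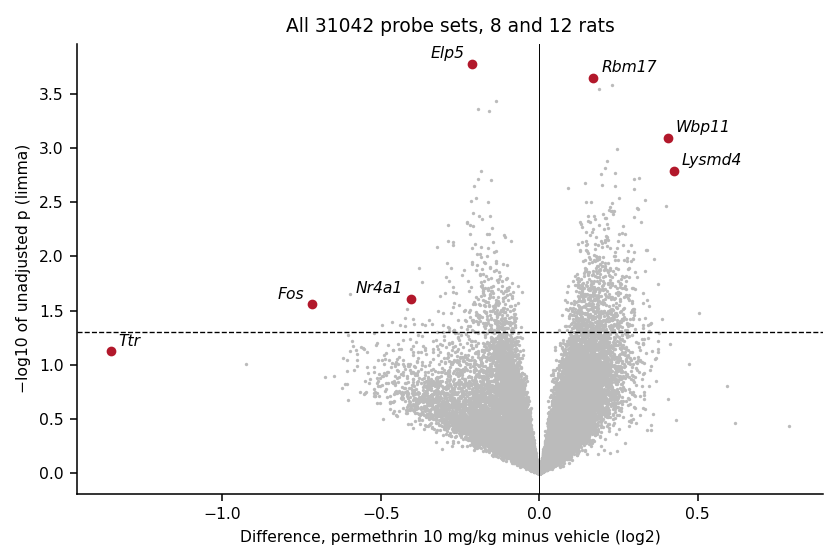
Each grey point is 1 of 31042 probe sets, with the difference of permethrin 10 mg/kg minus vehicle (log2) on the x axis and −log10 of the unadjusted limma p on the y axis. The dashed line marks an unadjusted p of 0.05, which 1080 probe sets passed, and red points are genes described in the text.

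The genes with the lowest p are given next as a description, since each had an adjusted p of 0.961. The 12 genes on the higher side had differences of 0.17 to 0.42 and unadjusted p-values of 0.000227 to 0.00192. They include 2 genes of mRNA splicing, Rbm17 (1396401_at) and Wbp11 (1372575_at), the Mediator subunit Med28, the F-box protein Fbxo22 of a ubiquitin ligase, the ribosome assembly factor Nip7, the claudin Cldn12 and the secreted neuronal glycoprotein Nell2. The others were Wrnip1, a partner of the Werner helicase, the kinase Dclk3, the globoside synthase B3galnt1, Vcf1 and Lysmd4. The 12 genes on the lower side had differences of -0.23 to -0.15 and unadjusted p-values of 0.000169 to 0.00521.

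Wbp11 lay at 9.13 at the lowest, 9.44 at the median and 9.77 at the highest of the 8 treated rats, against 8.43, 9.11 and 9.50 in the 12 vehicle rats (log2 difference 0.41, SE 0.11). The ranges overlapped, and the 4 lowest vehicle values were those of array set 2. With the 3 array sets as a block, the difference of Wbp11 was 0.24. Med28 ranged from 8.72 to 8.97 in treated rats (median 8.86), against 8.34 to 8.82 in vehicle rats (median 8.67), and 6 of 8 treated rats exceeded the highest vehicle rat. Its difference of 0.24 (SE 0.072) became 0.16 with the 3 sets as a block. Lysmd4, a protein with a LysM domain, had the largest difference of these 12, 0.42 (SE 0.13), and 2 of its 4 probe sets had the same sign. Its treated values ran from 7.52 to 8.57 (median 7.76), against 7.07 to 7.94 in vehicle (median 7.50). All 8 treated rats were above the vehicle median for Lysmd4, and the SD was 0.42 in treated and 0.22 in vehicle rats. Fbxo22 lay between 8.24 and 8.53 in treated rats (median 8.35), against 8.00 to 8.39 in vehicle rats (median 8.17), and all 8 treated rats were above the vehicle median here too.

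On the lower side, Elp5 (1395303_at), a subunit of the Elongator complex that modifies transfer RNAs, had the lowest p of all named genes. Its values were 5.44 at the lowest, 5.63 at the median and 5.83 at the highest treated rat, against 5.69, 5.85 and 6.06 in vehicle rats (difference -0.21, SE 0.053). Of the 8 treated rats 5 lay below every vehicle rat, and the difference was -0.22 in sets 1 and 2 and -0.21 in set 3. The other probe set of Elp5 had the opposite sign. Gprasp3, a sorting protein of G protein-coupled receptors, ranged from 5.49 to 5.81 in treated rats (median 5.64), against 5.68 to 5.97 in vehicle rats (median 5.85). Rif1, which acts in replication timing and repair of DNA breaks, ranged from 5.47 to 5.81 in treated rats (median 5.62), against 5.69 to 6.15 in vehicle rats (median 5.82). For Gprasp3 and Rif1, 6 of 8 treated rats lay below every vehicle rat. Onecut2, a transcription factor, differed by -0.15 (SE 0.047), and its 4 probe sets had the same sign.

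The remaining genes on the lower side were Cast, the calpain inhibitor calpastatin, with a difference of -0.21, the endothelial adhesion receptor Adgrl4 (-0.23), the endosomal sodium/proton exchanger Slc9a9 (-0.23) and the insulin-degrading enzyme Ide (-0.21). Phf20l1, Zfp329, Zfp729 and LOC100909405 completed the 12. Of these 12 probe sets, 9 had a mean below 7.17, the median level over all probe sets. On the higher side 1 of the 12 did, that of Rbm17, with a mean of 4.79. All 24 leading genes had the same sign in sets 1 and 2 and in set 3, which is little support, since they were chosen on these same rats. The sizes differed, and 20 of the 24 differences were over 1.5 times smaller in set 3. Phf20l1 differed by -0.43 in sets 1 and 2 and by -0.0063 in set 3, Nell2 by 0.39 and 0.046, and Rbm17 by 0.28 and 0.097.

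**Figure D3:**
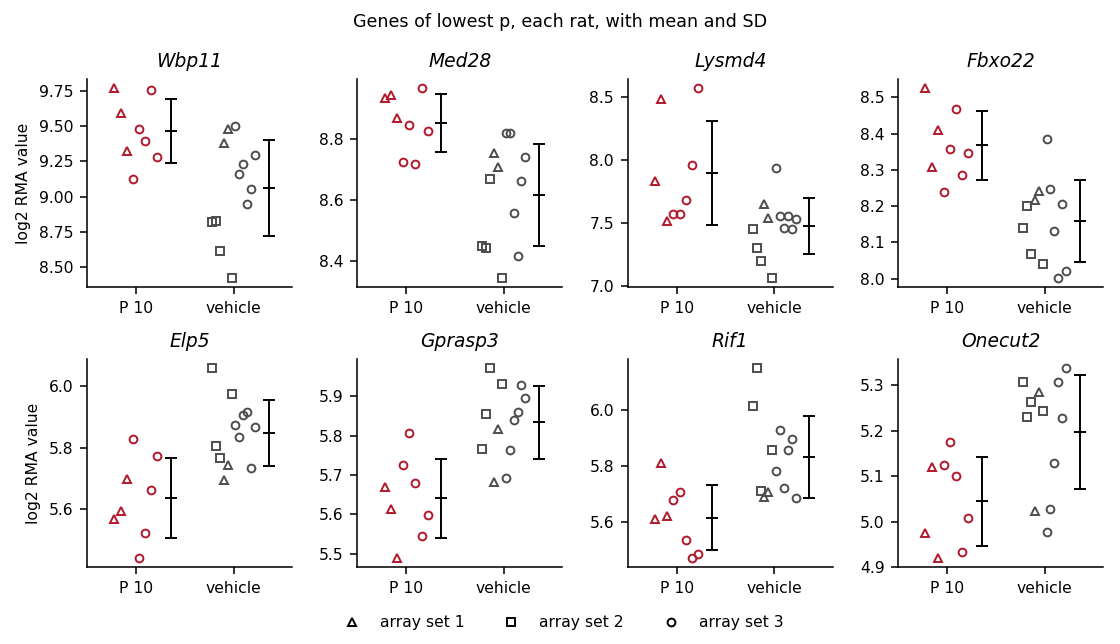
Log2 RMA value (y axis) of each rat for 4 genes of lowest p on the higher side (top) and 4 on the lower side (bottom), with permethrin 10 mg/kg (P 10, red) left of vehicle (grey). Bars give mean and SD over 8 and 12 rats, the marker shape gives the array set, and the groups overlap in every panel.

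Apart from Lysmd4, the 6 genes of largest difference on either side were not among those of lowest p. Ttr, the transthyretin that choroid plexus secretes in large amounts, had the largest difference, -1.35 (SE 0.74, unadjusted p 0.0751). It lay between 7.62 and 9.53 in treated rats (median 7.93), against 7.48 to 13.56 in vehicle rats (median 8.18). The low ends of both groups were alike, and the vehicle group reached far higher values. The difference of Ttr was -0.48 in sets 1 and 2 and -2.28 in set 3. Of the other 7 measured choroid plexus markers 6 were lower in treated rats by value. The mean deviation of these 7 markers ran from -0.20 to 0.048 in treated rats and from -0.15 to 1.23 in vehicle rats, and the part of choroid plexus RNA in the Ttr value was not tested. On the same side stood Clk1 (-0.65), a kinase of splicing factors, Pnisr (-0.68), Pcmtd1 (-0.62) and Prp2l1 (-0.92). The differences of Clk1 and Pnisr were -1.81 and -1.90 in sets 1 and 2, against -0.0046 and -0.030 in set 3. Pcmtd1 had -1.75 in sets 1 and 2 and 0.049 in set 3. On the higher side stood probe set 1387762_s_at of Jund, a Fos partner in the AP-1 transcription factor, with 0.59 (SE 0.41). The brightest probe set of Jund differed by 0.054 (SE 0.057), and the third by -0.038 (SE 0.049). Cirbp, a cold-inducible RNA-binding protein, differed by 0.43 (SE 0.43), which was -0.026 with the 3 array sets as a block. Plekhm3 (0.51), Hps6 (0.47) and Bckdha (0.41) followed, along with Lysmd4. Within sets 1 and 2 these 3 genes differed by 0.87, 0.96 and 0.79, and within set 3 by 0.33, 0.23 and 0.25.

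The 10 genes that the study followed by PCR, or that belong to the stress axis (Crh), are measured by 16 probe sets. They were followed because of values in these same animals, so their pattern is not independent evidence. Of the 16, 9 were higher and 7 lower in treated rats by value, 1 was under an unadjusted p of 0.05, and 15 had intervals within 1.5-fold either way. Fos, the prototype immediate early gene, was the exception. Its probe set 1375043_at had 5.73 at the lowest, 6.32 at the median and 7.20 at the highest treated rat, against 5.72, 7.07 and 8.50 in vehicle rats. The difference was -0.72 (SE 0.32, 95% interval -1.35 to -0.082, unadjusted p 0.0277), and it was -0.63 in sets 1 and 2 and -0.71 in set 3. The treated range lay inside the vehicle range, and 7 of 8 treated rats were below the vehicle median. The other Fos probe set, 1371283_at, differed by 0.019 (SE 0.082), with a sign that turned under other settings, so the probe sets of this gene disagreed.

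Nr4a1, Klf4 and Egr1 were lower in treated rats by value, again without passing the test, while Klf4 was lowest in replicates 1, 2 and 7, the 3 treated rats in which Fos 1375043_at was highest. Nr4a1, a nuclear receptor induced by activity, ranged from 8.76 to 9.68 in treated rats (median 9.09), against 8.85 to 10.82 in vehicle rats (median 9.32). Its difference was -0.40 (SE 0.18, unadjusted p 0.0248), and -0.33 and -0.36 within sets 1 and 2 and within set 3. Klf4, a zinc finger transcription factor, differed by -0.27 (SE 0.12, unadjusted p 0.0266), and all 8 treated rats were below the vehicle median. The difference of Klf4 was -0.49 in sets 1 and 2 and -0.11 in set 3. Egr1, measured by 1 probe set, differed by -0.16 (SE 0.15), with 10.81 to 11.84 in treated rats (median 11.12), against 11.04 to 12.10 in vehicle rats (median 11.28). It was -0.0033 in sets 1 and 2 and -0.15 in set 3, and replicates 1 to 3 of the treated group lay above the vehicle median. In the list of immediate early transcription factors as a whole, 0 of 26 measured members were called. With Fos counted by its brighter probe set, 1371283_at, 12 were higher and 14 lower by value (median -0.0082), with 0 higher and 2 lower (Nr4a1 and Klf4) under an unadjusted p of 0.05. With Fos counted by 1375043_at instead, 11 were higher and 15 lower (median -0.019), with 0 and 3 under that p. Over all probe sets these shares were 2.36% higher and 1.12% lower. Fosb, which forms AP-1 with Jun proteins, differed by 0.24, and Egr4 by 0.16. Of the later activity-regulated genes, 0 of 33 were called, with a median of 0.022. Pim1, a kinase, was the member under an unadjusted p of 0.05 (0.12, SE 0.058).

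Promoters of Nr4a1 and Egr1 are shown with their matches to the letters of elements through which firing neurons are known to switch immediate early genes on. The sequences are from RefSeq (build GRCr8), from 250 bases before to 50 bases after the start of the gene. Capitals mark TGACG, the start of the cAMP response element, on either strand (CGTCA on the strand shown), and the CArG box bound by serum response factor. The Nr4a1 promoter, chr7:134259888-134260187 on the plus strand, held 4 copies of TGACG and 0 CArG boxes, and the Egr1 promoter, chr18:26736828-26737127 on the plus strand, held 2 and 2.
Nr4a1: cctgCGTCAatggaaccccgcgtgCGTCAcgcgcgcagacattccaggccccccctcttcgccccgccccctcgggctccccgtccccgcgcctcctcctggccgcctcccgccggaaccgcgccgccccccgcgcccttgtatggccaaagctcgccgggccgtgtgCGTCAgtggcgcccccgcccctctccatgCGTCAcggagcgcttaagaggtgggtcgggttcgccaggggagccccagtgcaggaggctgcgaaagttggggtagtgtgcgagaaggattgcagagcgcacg
Egr1: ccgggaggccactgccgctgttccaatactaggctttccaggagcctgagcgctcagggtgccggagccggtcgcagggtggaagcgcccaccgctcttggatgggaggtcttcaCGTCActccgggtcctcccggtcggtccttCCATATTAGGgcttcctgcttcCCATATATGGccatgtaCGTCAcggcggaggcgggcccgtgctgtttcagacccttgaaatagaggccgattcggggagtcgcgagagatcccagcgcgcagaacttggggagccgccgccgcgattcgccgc
Over the 19 immediate early genes with a promoter in the table, 13 held TGACG, 5 the full palindrome TGACGTCA and 4 a CArG box, against 21.2%, 1.83% and 1.64% of all 33469 promoters of the same 300 bases. A match is a description of the letters and no evidence of a site in use.

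Set beside the neighbouring doses, Fos 1375043_at and Bdnf at 10 mg/kg had means close to those at 1 mg/kg and below those at 100 mg/kg, while the immediate early list as a whole lay between these doses (median difference 0.082 from 1 mg/kg and -0.079 from 100 mg/kg). Fos 1375043_at averaged 7.13 ± 0.80 in vehicle rats (SD, n = 12) and 6.35 ± 0.55, 6.41 ± 0.58 and 7.79 ± 0.74 at 1, 10 and 100 mg/kg (SD, n = 8 each). The direct difference of 10 minus 100 mg/kg was -1.38 (SE 0.35, unadjusted p 0.000209), and of 10 minus 1 mg/kg 0.067 (SE 0.35). Bdnf 1368677_at, a neurotrophin gene, averaged 6.63 ± 0.32 in vehicle rats and 6.49 ± 0.37, 6.50 ± 0.30 and 7.09 ± 0.39 at 1, 10 and 100 mg/kg. Its difference of 10 minus 100 mg/kg was -0.59 (SE 0.16, unadjusted p 0.000442), and of 10 minus vehicle -0.13 (SE 0.14). The last value changed sign, with -0.33 in sets 1 and 2, 0.021 in set 3 and 0.050 with the 3 array sets as a block. The other Bdnf probe set, 1368678_at, differed at 10 mg/kg by -0.11 (SE 0.046) from 100 mg/kg and by -0.057 (SE 0.042) from vehicle. In the comparison of 10 with 100 mg/kg, Fos 1375043_at ranked 5th and Bdnf 1368677_at 7th of 31042 by p. Egr1 ranked 39th with -0.43 (SE 0.16), against 0.17 for Egr1 at 10 minus 1 mg/kg. The study listed these probe sets as responsive to permethrin on these same arrays, so their ranks are not independent evidence. None was called, at an adjusted p of 0.9999 (limma, Benjamini-Hochberg), and 0 of 31042 probe sets (0%) passed in that comparison, with 274 (0.883%) under an unadjusted p of 0.05. Between 10 and 1 mg/kg, 0 probe sets passed (0%), and 782 (2.52%) were under an unadjusted p of 0.05.

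Crh, the corticotropin-releasing hormone of the stress response, averaged 6.98 ± 0.18 in vehicle rats and 7.02 ± 0.21, 7.12 ± 0.22 and 7.38 ± 0.22 at 1, 10 and 100 mg/kg. The difference of 10 mg/kg minus vehicle was 0.13 (SE 0.098, 95% interval -0.063 to 0.33). Camk1g (1391229_at), a calcium/calmodulin-dependent kinase, differed by 0.13 (SE 0.098), with 9.05 to 9.58 in treated rats (median 9.23), against 8.86 to 9.42 in vehicle rats (median 9.19). It was 0.34 in sets 1 and 2 and 0.0078 in set 3. The study's PCR of other rats reported Camk1g as higher than in controls at this permethrin dose. It reported no other followed transcript as changed at this dose. Rassf5, a Ras effector, averaged 9.13 ± 0.093 in vehicle rats and 9.27 ± 0.22, 9.28 ± 0.15 and 9.42 ± 0.18 at 1, 10 and 100 mg/kg. Its difference of 10 mg/kg minus vehicle was 0.15 (SE 0.081, unadjusted p 0.073), and 7 of 8 treated rats were above the vehicle median. Crh was -0.040 in sets 1 and 2 and 0.23 in set 3, and Rassf5 was 0.25 and 0.077. Fkbp5, a glucocorticoid-induced chaperone partner, differed by 0.10 (SE 0.092) in its brighter probe set and by -0.021 (SE 0.12) in the other. The brighter one differed by 0.20 in sets 1 and 2, 0.0031 in set 3 and 0.0080 with the 3 array sets as a block. Gpd1, glycerol-3-phosphate dehydrogenase and also glucocorticoid-responsive, differed by 0.084 (SE 0.20) and -0.084 (SE 0.17) in its probe sets. Ddc, which makes dopamine and serotonin, differed by 0.0084 (SE 0.078) and -0.065 (SE 0.10), and the small heat shock protein Hspb1 by 0.18 (SE 0.15). The signs of Gpd1, Ddc and Hspb1 turned under at least 1 alternative for the array sets or replicate numbers.

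**Figure D4:**
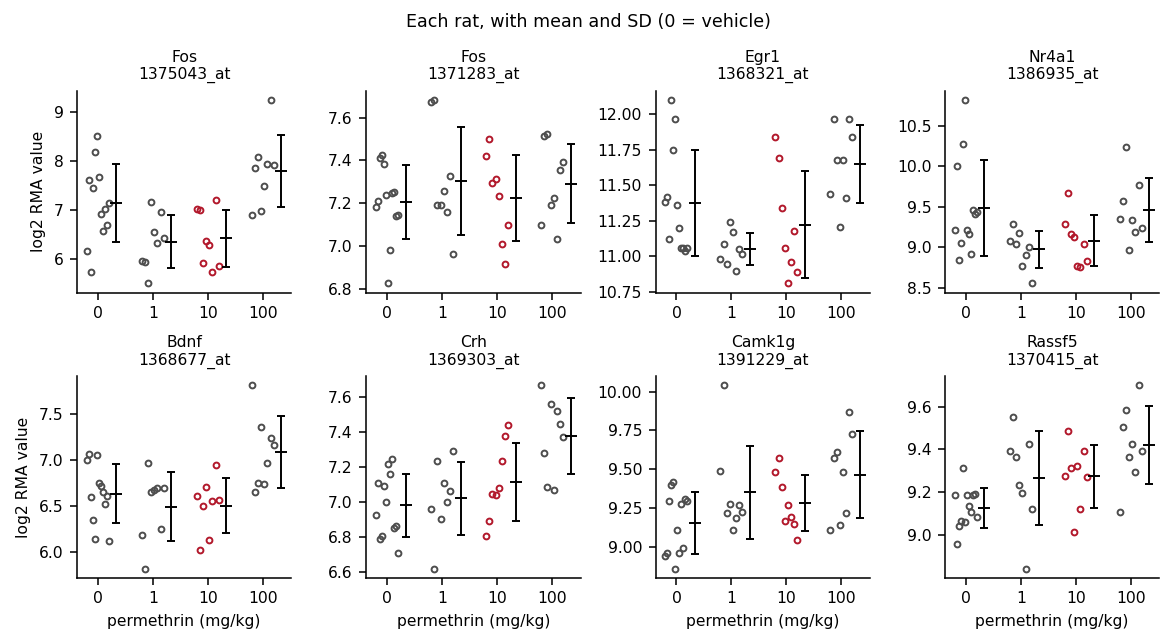
Log2 RMA value (y axis) of each rat against the permethrin dose in mg/kg (x axis, not to scale, 0 is vehicle) for 8 probe sets, with 10 mg/kg in red and mean and SD beside each group (12 vehicle rats, 8 per dose). Fos 1375043_at and Bdnf averaged 6.41 and 6.50 at 10 mg/kg, against 7.79 and 7.09 at 100 mg/kg, while the means of Fos 1371283_at differed by -0.069 between these doses.

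Genes of the pathways that a pyrethroid could touch were examined in 22 lists. They hold 531 measured genes, each represented by its brightest probe set, and 0 were called. Of these genes 12 were higher and 5 lower at an unadjusted p under 0.05, which is 3.20%, against 3.48% of all probe sets. List medians ran from -0.058 to 0.081, against -0.00065 for all probe sets. In the brighter of 2 equal parts of all probe sets, 547 were higher and 77 lower at an unadjusted p under 0.05. All probe sets are thus no matched background for the direction of lists made of brightest probe sets. With the 2 array clusters as a block, the medians of 9 of the 22 lists changed sign. Intervals lay within 1.5-fold for 479 of the 531 genes.

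Voltage-gated sodium channel subunits, the targets of pyrethroids, had 12 measured members, of which 0 were called, 4 were higher and 8 lower by value (median -0.024, and 0.036 with the 2 array clusters as a block). Scn2b, an auxiliary beta subunit, was the member with an unadjusted p under 0.05. It lay between 11.29 and 11.78 in treated rats (median 11.60), against 11.07 to 11.72 in vehicle rats (median 11.33), with a difference of 0.22 (SE 0.082, unadjusted p 0.00841). The difference was 0.27 in sets 1 and 2 and 0.22 in set 3, and its second probe set had the opposite sign. Among voltage-gated calcium channel subunits 0 of 16 were called (median -0.013), and the lowest p belonged to Cacna2d3, an alpha2delta subunit, with 0.12 (SE 0.077). Chloride channels and cation chloride cotransporters (17 measured) had a median of 0.021, with the lowest p in Slc12a1 (-0.042, SE 0.031). The mean level of Slc12a1 was 4.11, near the lowest value of all arrays, 3.75. Of 48 potassium channel subunits 0 were called. Kcnk2, a potassium leak channel, differed by 0.16 (SE 0.067), Kcnj11, the pore of an ATP-sensitive channel, by 0.21 (SE 0.099), and Kcna3, a delayed rectifier, by -0.10 (SE 0.046). All 8 treated rats were above the vehicle median for Kcnk2 and Kcnj11. Kcnj11 was 0.37 in sets 1 and 2 and 0.11 in set 3, and Kcnk2 was 0.24 and 0.14.

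No receptor or release gene was called. GABA receptor subunits had the lowest median of the lists, -0.058, with 5 of 16 higher and 11 lower by value, and Gabbr1, a metabotropic subunit, had the lowest p (0.098, SE 0.052). Of 23 glutamate receptors 0 were called (median 0.068, and -0.0025 with the 2 array clusters as a block), and Grm8 had the lowest p (-0.12, SE 0.069). Synaptic vesicle release genes (29 measured) had a median of -0.0029. Syn2, a synapsin, differed by 0.18 (SE 0.086), with 0.48 in sets 1 and 2 and -0.046 in set 3. Among calcium and calmodulin-dependent kinases the lowest p was that of Camk1 (0.23, SE 0.14, with 0.51 in sets 1 and 2 and 0.087 in set 3), and in the list of the sodium pump and calcium clearance that of Pvalb, a calcium buffer of fast-spiking interneurons (0.25, SE 0.15, with 0.41 and 0.25 there).

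Stress and clock genes did not pass the test either. Glucocorticoid-responsive genes (25 measured) had 18 higher and 7 lower by value with a median of 0.076, which was 0.014 with the 2 array clusters as a block. Cebpb had the lowest p (0.29, SE 0.17), with 0.62 in sets 1 and 2 and 0.11 in set 3. Heat shock proteins and chaperones (17 measured) had a median of 0.044 (-0.0072 with that block), led by Hmox1 (0.14, SE 0.11, and -0.0021 with the 3 array sets as a block), and endoplasmic reticulum stress genes (22 measured) one of 0.074, led by Ddit3 (0.13, SE 0.067). Cry1, a repressor of the circadian clock, differed by 0.25 (SE 0.13) among 20 clock genes, with 0.51 in sets 1 and 2 and 0.093 in set 3.

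Metabolic genes were not called either. Glycerophospholipid metabolism (31 measured) had 0.081, with 21 members higher and 10 lower by value. Dgkg, a diacylglycerol kinase, lay between 8.98 and 9.45 in treated rats (median 9.39), against 8.23 to 9.39 in vehicle rats (median 9.13), a difference of 0.27 (SE 0.096, unadjusted p 0.00779). It was 0.53 in sets 1 and 2 and 0.028 in set 3, and Pcyt1a, an enzyme of phosphatidylcholine synthesis, had 0.28 and 0.063 there, for 0.16 overall (SE 0.067). Mitochondrial channels and respiratory chain genes (34 measured) had a median of 0.069, with 25 higher and 9 lower by value. Ndufa9 of complex I differed by 0.21 (SE 0.09) and Atp5po of the ATP synthase by 0.19 (SE 0.072). These were 0.41 and 0.39 in sets 1 and 2, and 0.080 and 0.056 in set 3. With the 2 array clusters as a block, the medians were 0.0068 for glycerophospholipid metabolism and 0.050 for the mitochondrial list.

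The neuronal glucose transporter Slc2a3, in the list of monocarboxylate transporters and lactate enzymes (13 measured, median 0.019), differed by 0.22 (SE 0.089), and all 8 treated rats were above the vehicle median. Slc2a3 was 0.38 in sets 1 and 2 and 0.15 in set 3. Slc30a6, a zinc transporter of the secretory pathway, differed by 0.20 (SE 0.071), and 6 of 8 treated rats exceeded every vehicle rat, while Slc39a8, an importer of zinc and manganese, differed by -0.13 (SE 0.061). Slc30a6 was 0.38 in sets 1 and 2, 0.059 (SE 0.076) in set 3 and 0.11 with the 3 array sets as a block, and Slc39a8 was -0.23 in sets 1 and 2 and -0.042 in set 3. Their list of 30 metal transporters and metallothioneins had a median of 0.023. Of 37 measured genes of pyrethroid and xenobiotic metabolism 0 were called (median 0.0068), and Cyp2c13 differed by -0.14 (SE 0.064). Branching morphogenesis genes (41 measured, median 0.00034) were led by Fgf10 (-0.096, SE 0.053), and those of monoamine synthesis and handling (13 measured, median -0.0019) by Slc18a2, the vesicular monoamine transporter (-0.074, SE 0.057).

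**Figure D5:**
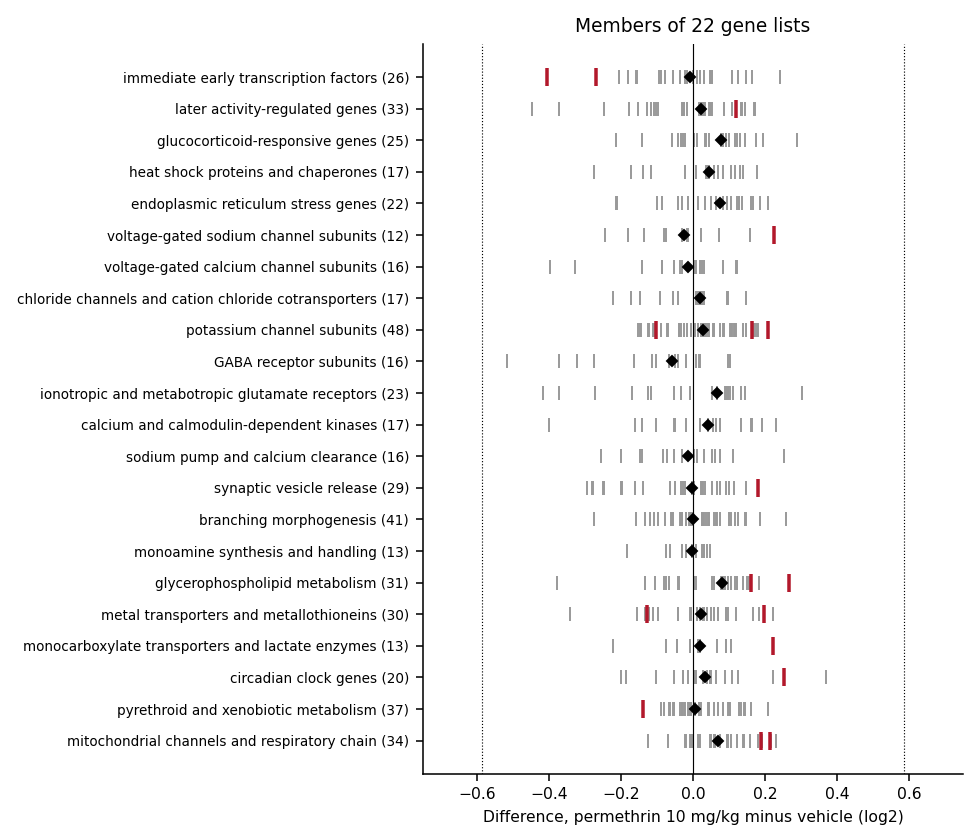
Difference of permethrin 10 mg/kg minus vehicle (log2, x axis) for each measured member (ticks) of 22 gene lists (rows, number of members in brackets), with the list median as a black diamond and members under an unadjusted p of 0.05 in red. Dotted lines mark 1.5-fold either way, and list medians run from -0.058 to 0.081.

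Markers of cell types that a cortical dissection can vary in were compared in 11 lists, and 0 of their genes were called. List medians lay between -0.034 and 0.086 except for choroid plexus (-0.13). The mean deviation of 10 striatal markers ran from -0.12 to 0.44 in treated rats and from -0.36 to 0.42 in vehicle rats. For 12 microglial markers it ran from -0.21 to 0.31 in treated rats and from -0.19 to 0.42 in vehicle rats. For 11 oligodendrocyte markers it ran from -0.26 to 0.16 in treated rats and from -0.17 to 0.30 in vehicle rats. In each of these lists the ranges of the groups overlapped over most of their length.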

How the data were processed

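Total RNA of frontal cortex was measured on 1 Affymetrix rat genome array per rat. The authors deposited log2 values made with RMA (RMAExpress), which corrects background, normalizes by quantiles and summarizes probes, and these were used as deposited (31042 probe sets, 3.75 to 14.1). Arrays have no read depth, so the number of rats limits precision. Groups came from the sample titles. A gene was named where the platform annotation gives 1 symbol (20826 probe sets, 14217 genes), and 436 probe sets with several symbols and 9780 with none were not named. The members, gene lists and named genes were chosen with earlier results of these data known. Named genes were the 12 of lowest p and the 6 of largest difference on either side, 10 followed genes, and, of the 3 members of lowest p in a list, those under an unadjusted p of 0.05, or the first. Differences were tested with limma 3.58.1 (R 4.3.3) in 1 fit of all 60 arrays with a mean per group. Its moderated p-values were adjusted over the whole array by the Benjamini-Hochberg method, with a threshold of 0.05. In simulated data for this comparison (31042 probe sets), the fit found 78 of 100 differences of 0.5 and 95 of 100 differences of 1, with 6 false calls. The simulated noise was independent between arrays and probe sets and held no array sets. These figures check the fit and need not hold for the real arrays. Array sets were k-means clusters of the arrays on the first 2 principal components. Alternatives were blocks, weights, centring, filters, a Dunnett test and leaving out each rat. Promoters were searched and figures drawn with Python 3.11.15, pandas 2.3.3 and matplotlib 3.10.9. No probe set was tested for detection above background, since RMA values hold no such call. The PCR data of the study were not analysed here.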

Additional observations from a re-analysis of the deposited data

Results flagged for a closer look

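Among the 8 rats given 10 mg/kg permethrin, the highest or lowest value stood apart from the other 7 by Dixon's criterion in 14 of 114 measures examined (named probe sets, list means and array scores). Chance gives about 1 in 20 for independent, normally distributed measures. Many of these measures were chosen by p or size, and they share rats and array sets, so an excess over chance was not tested. Replicate 4 of the treated group was apart in 6 of them. It was the lowest rat for Scn2b (11.29, next 11.55), Dgkg (8.98, next 9.29), Slc30a6 (7.69, next 8.01) and Plekhm3 (6.19, next 7.35), and the highest for Ttr (9.53, next 8.27) and Slc39a8 (6.12, next 5.87). For Scn2b, Dgkg, Slc30a6 and Slc39a8, replicate 4 lay on the opposite side of the vehicle median from the other 7 treated rats.

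Replicate 3 was lowest for Cirbp (7.06, next 8.82) and Ddc 1375317_at (6.41, next 6.72), and highest in the score on the second principal component (19.5, next 2.30). Replicate 1 was lowest for Ide (7.25, next 7.73) and highest for Ndufa9 (11.64, next 11.30). The mean deviation of the striatal markers was 0.44 in replicate 1, against 0.072 in the next treated rat, and vehicle rats reached 0.42. Replicate 7 was lowest for Fgf10 (5.19, next 5.37), and the mean deviation of the excitatory neuron markers was lowest in replicate 5 (-0.22, next -0.075).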

How the results depend on the processing

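No probe set was called between permethrin 10 mg/kg and vehicle, 1 mg/kg or 100 mg/kg under any alternative run, and the lowest adjusted p against vehicle was 0.112, with array quality weights. The count under an unadjusted p of 0.05 against vehicle, 1080 in the comparison as reported, was 2202 with the first principal component as a covariate, 3602 with array quality weights, 241 with the Dunnett test of the log2 values and 624 in the brighter of 2 equal parts of the probe sets, where fewer were tested. With blocks chosen after seeing the data it was 2995 for the 24 arrays of sets 1 and 2 against the 36 of set 3, and 3310 with the first component added. Within sets it was 478 (set 1), 2641 (sets 1 and 2) and 716 (set 3), and leaving out 1 rat it ranged from 606 (without permethrin 10 mg/kg replicate 1) to 2033 (without permethrin 10 mg/kg replicate 4). It was over 1.5 times the reported count without vehicle replicate 4 as well (2018). Against 1 mg/kg it was 1803 with the 2 array clusters as a block and 472 in the brighter part (782 as reported), and against 100 mg/kg 545 and 91 (274 as reported). The causes were not tested.

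Replicate numbers 1 to 8 are shared by the groups. Correlations of same-numbered rats ran from -0.771 to 0.794, and 2 of 8 treated rats correlated best with the vehicle rat of their own number. Treated rats 1 to 3 were in array set 1, however, and vehicle rats 1 to 3 in set 2. Treated rats 4 to 6 were in set 3, and vehicle rats 4 to 6 in sets 1 and 2. Numbers 1 to 6 thus paired rats of different sets (correlations -0.418, -0.391, 0.274, -0.771, -0.601 and 0.353). Only numbers 7 and 8 paired rats of the same set, set 3 (0.794 and 0.585), and these were the 2 that correlated best with their own number. Number and array set therefore cannot be told apart, and the values cannot test a pairing. With the replicate block, which mixes the array sets in the same way, the count was 1813 and no probe set was called. Of 78 named probe sets, the 24 of lowest p kept their sign throughout, which is little support, since they were chosen on these same rats. Of the others 10 changed sign somewhere, none of them called. With the 2 array clusters as a block, Camk1g 1377518_at was -0.00052, Ddc 1368064_a_at -0.013, Gpd1 1371363_at -0.023 and Fos 1371283_at -0.041. With the first component as a covariate the last 3 were -0.021, -0.018 and -0.038. With the 3 array sets as a block, Ddc 1368064_a_at was -0.043, Gpd1 1371363_at -0.093, Fos 1371283_at -0.034, Fkbp5 1380611_at 0.017, Bdnf 1368677_at 0.050, Hspb1 -0.035, Hmox1 -0.0021 and Cirbp -0.026. Without the 14 arrays of set 1, Ddc 1368064_a_at was -0.050, Gpd1 1371363_at -0.051 and Fos 1371283_at -0.050. With array weights Ddc 1368064_a_at was -0.027 and Fos 1371283_at -0.051, and with the replicate block Ddc 1375317_at was 0.058. Fkbp5 1380611_at was 0.0064 with centred arrays and 0.024 with the 24 and 36 arrays as a block. Leaving out 1 rat, Ddc 1368064_a_at ranged from -0.027 to 0.028, Fkbp5 1380611_at from -0.071 to 0.024 and Fos 1371283_at from -0.020 to 0.063. Of 66 recomputed list medians 65 moved by less than the spread (SD) between rats. That spread exceeded most of the medians, so a median could fall to near 0 and count as unmoved, which is little support. Glycerophospholipid metabolism did so, from 0.081 to 0.0068 with the 2 clusters as a block (spread 0.101). The exception was glutamate receptors with the 2 clusters as a block (-0.0025). Signs were less stable, and with that block 8 other medians changed sign as well: later activity genes (-0.0050), heat shock proteins (-0.0072), sodium channels (0.036), chloride channels (-0.0055), potassium channels (-0.0068), branching morphogenesis (-0.029), monocarboxylate transporters (-0.016) and xenobiotic metabolism (-0.022). With centred arrays the medians of immediate early genes (0.019), sodium channels (0.0028), calcium channels (0.014), the sodium pump list (0.013), vesicle release (0.024) and monoamine handling (0.025) were above 0.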
